A study of Mus musculus with 4 samples.

Results

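A group of 10 genes of the acute inflammatory response was followed in mouse middle ear tissue after inhalation of diesel exhaust particles (DEPs). They were the cytokines Tnf, Il1a, Il1b, Il6 and Csf2, the prostaglandin synthase Ptgs2, the anti-inflammatory ligands Il10 and Il1rn, and the intracellular inhibitors Nfkbia and Tnfaip3. The genes were chosen by name, and every probe was taken whose RefSeq transcript mapped to one of these symbols. This gave 10 probes, 1 per gene, among 39429 probes that stood for 20971 named genes. Tnf, Il1b, Csf2, Ptgs2 and Il10 were printed as 10 spots per array and the other genes as 1 spot, so that 55 of 43020 spots per array belonged to the 10 genes.

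The study compared ears of DEP-exposed mice with control ears on 4 two-colour oligonucleotide arrays. In each hybridisation an extract from an exposed ear carried the red dye Cy5 and an extract from a control ear the green dye Cy3, and the labels describe the arrays as biological replicates. The animals were male BALB/c mice of 6 to 10 weeks, and those of the exposed group breathed DEPs for 1 h per day over 5 days. Tissue was collected on day 14 as a block of temporal bone around the middle ear, a region that holds bone, mucosa and adjoining tissue. The treatment of the control ears is given as none, and the number of mice behind an extract was not stated in the sources used here. The methods name ketoprofen, a cyclooxygenase inhibitor, for pain, without saying which mice received it.

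All values below are log2 ratios of the DEP channel over the control channel, and a ratio above 0 means a higher signal in the DEP channel. The direction rests on the source names of the channels. It opposes that of the paper. Of 25 tested genes listed as upregulated there, 24 had ratios below 0 here. If the channel labels were exchanged, every sign below and every count above or below 0 would turn, the mean of Tnf to -0.73 for example. There was no dye swap, and a dye preference of a probe and an effect of DEPs therefore cannot be told apart. In bulk tissue, fewer cells of a type and less RNA per cell cannot be told apart either.

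NF-κB is a transcription factor that is held in the cytoplasm by inhibitor proteins of the IκB family and is released when a cytokine or a microbial product activates the IκB kinase complex. It then binds κB elements and switches on cytokine genes, among them Tnf, Il1b and Il6, and also its own inhibitors, including Nfkbia and Tnfaip3, which shut the signal off again. This loop of induction and feedback is a standard component of mucosal inflammation, and its cytokines have been studied widely in otitis media.

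The κB elements near the start sites are shown because they are the sequence feature by which NF-κB acts on these genes. The RefSeq promoter windows of assembly GRCm38.p6, which reach from 250 bases before to 50 bases after a start site, covered 9 of the 10 genes in 12 windows. The κB consensus of 10 letters, searched on both strands, was present in the windows of Il6, Nfkbia and Tnfaip3, and in 8.46% of all 32851 windows. Each match is printed below in capitals with 15 bases on either side, in the direction of the gene, and the Tnfaip3 window holds 2 of them.
Il6, chr5:30013055-30013094, plus strand: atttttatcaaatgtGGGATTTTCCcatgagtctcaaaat
Nfkbia, chr12:55492652-55492691, minus strand: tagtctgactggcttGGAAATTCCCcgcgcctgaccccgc
Tnfaip3, chr10:19015398-19015437, minus strand: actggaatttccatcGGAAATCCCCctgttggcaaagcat
Tnfaip3, chr10:19015511-19015550, minus strand: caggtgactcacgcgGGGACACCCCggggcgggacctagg
The capitals began 44 bases before the start site in Il6, 29 bases before it in Nfkbia, and 12 and 125 bases before it in Tnfaip3. The last of these stretches also holds a match to the AP-1 letters TGANTCA, which does not overlap the capitals. AP-1 is another transcription factor that drives many inflammatory genes. Its letters were found in the windows of Il1a, Il1rn, Il6 and Tnfaip3 and in 7.81% of all windows. The letters TATAAA of a TATA box were in the windows of Il1a, Il1b, Il1rn, Nfkbia, Tnf and Tnfaip3, against 13.6% of all windows. These matches describe the letters in the windows and are not measured binding sites.

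No gene of the 10 differed between the DEP and control channels after adjustment over all probes. A channel was taken as measured on an array where most spots of the probe were well above background. Tnf had a mean ratio of 0.73 and a ratio above 0 on 4 of 4 arrays, with the DEP channel measured on 4 arrays and the control channel on 2. Il1b was clearly detected in both groups, but its ratio was above 0 on 2 arrays and below 0 on the other two. The inhibitors Nfkbia and Tnfaip3, which NF-κB induces, were also measured in both groups throughout and had mean ratios of 0.09 and 0.20. Il6, Il1a, Csf2, Ptgs2 and Il10 were at or near background.

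The ratios were tested against 0 with limma over 31577 probes. At an unadjusted p under 0.05, 2 of the 10 genes were called, Tnf and Il1a, and 18.6% of all probes tested were called. Both had ratios above 0, and 9.6% of all probes were called in that direction. After Benjamini-Hochberg adjustment in limma 0 of the 10 genes and 0.0% of all probes were called, the smallest adjusted p of any probe being 0.0922. Mean ratios were above 0 for 8 of the 10 genes, with a median of 0.29, while 53.1% of all probes were above 0 and their median was 0.02. The median of the 10 genes was 0.10 after normexp and loess, and -0.014 after normexp and centring, where 5 of the 10 were above 0. Both alternatives added 50 to each channel, which draws the ratios of weak signals towards 0. With the channel labels exchanged, 8 of the 10 genes would be below 0. The exact sign-flip test over arrays, which was run beside limma and is two-sided, cannot give a p below 0.125 with 4 arrays.

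**Figure D1:**
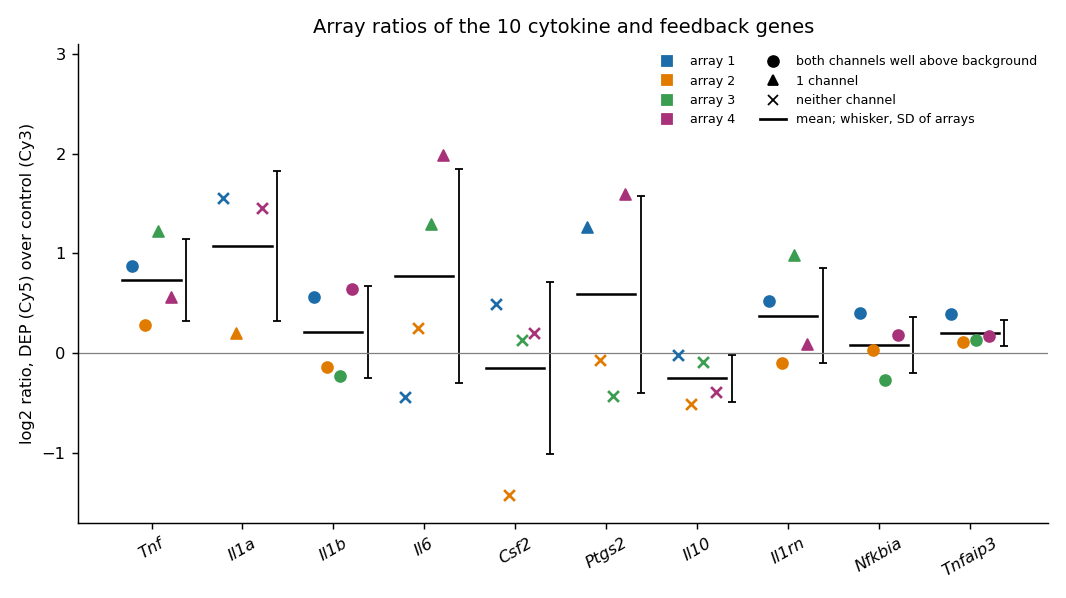
Log2 ratio of the DEP over the control channel (vertical axis) for each of the 10 genes on each array, with the mean and the SD over arrays. Circles mark arrays on which both channels were measured, triangles 1 channel and crosses neither. Only Il1b, Nfkbia and Tnfaip3 have 4 circles, and Tnf and Tnfaip3 have 4 ratios above 0 and a measured channel throughout.

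Detection set what could be read from these genes. Il1b, Nfkbia and Tnfaip3 were fully measured, that is, in both channels of the 4 arrays, as were 56.8% of all probes. Tnf and Il1rn were measured in the DEP channel on 4 arrays and in the control channel on 2. Il6, Ptgs2 and Il1a were measured in the DEP channel on 2, 2 and 1 arrays and in the control channel on none. Csf2 and Il10 were measured in neither channel on any array, a state shared by 26.0% of all probes. Where a channel has no significant signal, the image software puts in a value close to the error of the spot, so that such ratios are not measurements of a transcript.

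**Figure D2:**
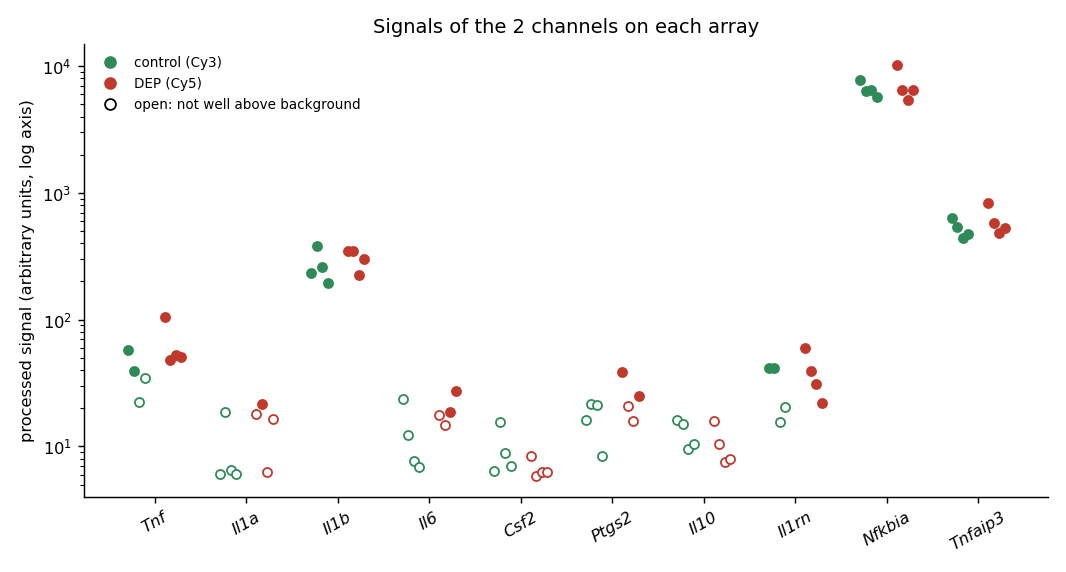
Processed signal (vertical log axis, arbitrary units) of each of the 10 genes in the control (Cy3, green) and DEP (Cy5, red) channel on each array. Open symbols are not well above background. The symbols of Tnf are filled on 4 arrays in the DEP channel and on 2 in the control channel, and all 8 are filled for Il1b, Nfkbia and Tnfaip3.

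Tnf encodes tumour necrosis factor, a cytokine released early by macrophages, mast cells and T cells that activates NF-κB in its target cells. Its signal in the DEP channel was 105, 47.9, 52.2 and 50.9 on arrays 1 to 4, and in the control channel 57.2, 39.5, 22.4 and 34.5. Array 1 was the brightest in both channels, and the DEP channel was the higher one on every array. The array ratios were 0.88, 0.28, 1.22 and 0.56, with a mean of 0.73 ± 0.41 (SD, n = 4), or 1.66-fold. In limma the standard error was 0.19, the unadjusted p 0.0109 and the adjusted p 0.173, with a 95% interval from 0.26 to 1.21, and the exact sign-flip p was 0.125. The highest ratio came from array 3, where none of the 10 control spots was well above background. On array 4, 4 of 9 control spots were, and on arrays 1 and 2 all of them were.

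The size of the Tnf ratio changed with the processing. With the spots well above background in both channels alone, a filter chosen after the data had been seen, the mean was 0.48 over 3 arrays with an unadjusted limma p of 0.0538. This filter left out array 3, which had the highest ratio, and on array 4 kept the 4 spots of lowest ratio. The lower mean thus partly follows from the filter, which selects on the control signal. After normexp background correction and loess normalization the mean was 0.23, with an unadjusted limma p of 0.0319. With centring in place of loess it was 0.14, with an unadjusted limma p of 0.168. Both alternatives added an offset of 50 to each channel, which draws the ratios of weak signals such as those of Tnf towards 0. The part of the offset in these means was not tested. In each alternative that kept Tnf the mean was above 0 and the adjusted limma p lay between 0.173 and 0.395, and the filter on both channels removed the gene.

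Il1b encodes interleukin-1β, which is made as a precursor by myeloid cells and cut by caspase-1. Its signal was 346, 347, 223 and 302 in the DEP channel and 234, 383, 261 and 193 in the control channel. The DEP signals lay within the range of the control signals. Its array ratios were 0.56, -0.14, -0.23 and 0.65, so that arrays 1 and 4 were above 0 and arrays 2 and 3 below. The mean was 0.21 ± 0.46 (SD, n = 4), with an adjusted limma p of 0.596 and a 95% interval from -0.31 to 0.73. With arrays 1 to 4 left out in turn it was 0.092, 0.33, 0.36 and 0.065. Of the 22394 fully measured probes, 74.2% had an SD over arrays no greater than that of Il1b.

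The spread of Il1b lay between the arrays and not between its spots. Within an array the spots of Il1b had an SD of 0.057, and the 4 array means had an SD of 0.46, 8.01 times as large. On array 1 the spots ran from 0.45 to 0.64, and on array 3 from -0.35 to -0.15. No spot of arrays 1 and 4 was below 0 and none of arrays 2 and 3 was above it. In the 289 fully measured probes with 5 or more spots, the corresponding medians were 0.042 within and 0.29 between arrays. Tnf had an SD of 0.26 within and 0.41 between arrays.

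**Figure D3:**
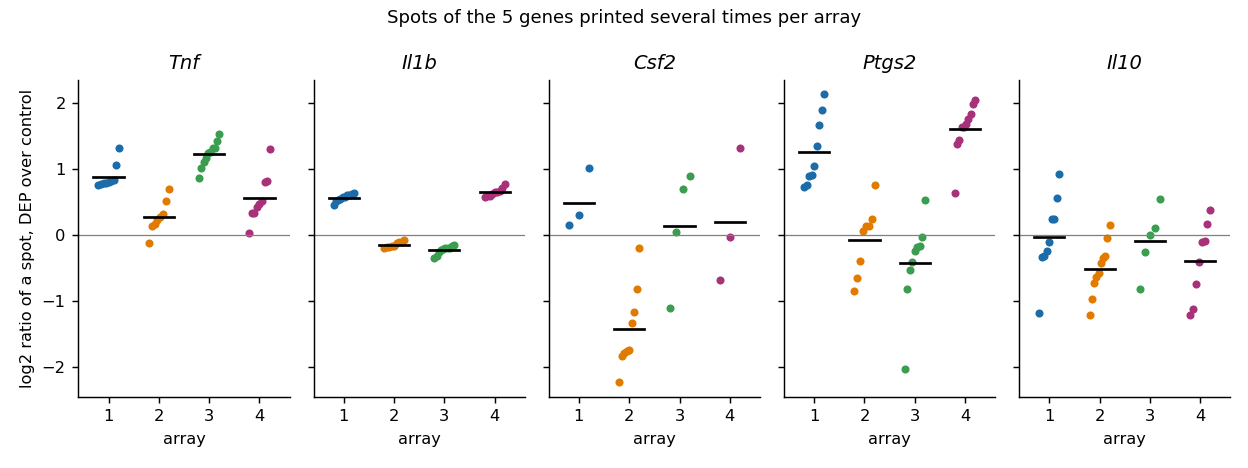
Log2 ratio of each spot (vertical axis) on arrays 1 to 4 (horizontal axis) for the 5 genes printed 10 times per array, without flagged spots and spots that have no ratio. Bars are array means. The spots of Il1b lie tightly around array means that take both signs, whereas those of Csf2, Ptgs2 and Il10 scatter by 0.53 to 0.78 (SD) within an array.

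Il6 encodes interleukin-6, an inducer of the acute phase response, and Il1a encodes interleukin-1α, which is held in epithelial cells and released on damage. The Il6 signal was 17.6, 14.8, 18.8 and 27.4 in the DEP channel and 23.9, 12.4, 7.64 and 6.92 in the control channel. Only arrays 3 and 4 measured it, in the DEP channel alone, and their ratios of 1.30 and 1.98 thus have no measured control. Arrays 1 and 2 had ratios of -0.44 and 0.25. The mean of 0.77 ± 1.08 (SD, n = 4) had an adjusted limma p of 0.383.

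For Il1a the signal was 17.9, 21.4, 6.23 and 16.6 in the DEP channel and 6.07, 18.6, 6.56 and 6.07 in the control channel. It had no ratio on array 3, and on the other arrays the ratios were 1.56, 0.20 and 1.45. The only array with a measured channel, array 2, gave the lowest of them. Its mean of 1.07 ± 0.75 (SD, n = 3) had an unadjusted p of 0.0326 and an adjusted p of 0.237 in limma, and its call at the unadjusted threshold therefore rests on control signals at background. Csf2, which encodes the granulocyte-macrophage colony-stimulating factor, had DEP signals of 5.83 to 8.38 and control signals of 6.39 to 15.6. Of its 36 spots kept over the arrays, 17 had no ratio and 2 were well above background, both in the control channel of array 2. Its mean of -0.15 ± 0.86 (SD, n = 4) had an adjusted limma p of 0.832.

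Ptgs2 encodes cyclooxygenase-2, the inducible enzyme of prostaglandin synthesis and a classic target of NF-κB. Its signal was 38.9, 20.8, 15.7 and 25.2 in the DEP channel and 16.2, 21.8, 21.2 and 8.33 in the control channel. Over the arrays 21 of its 36 spots were well above background in the DEP channel and 3 of 36 in the control channel. The array ratios were 1.26, -0.07, -0.43 and 1.60, so that the same arrays, 1 and 4, were above 0 as for Il1b. The mean of 0.59 ± 0.99 (SD, n = 4) had an adjusted limma p of 0.458 and a 95% interval from -0.43 to 1.61. All 19 spots of arrays 1 and 4 had ratios above 0, against 6 of 17 on arrays 2 and 3.

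Il1rn encodes the interleukin-1 receptor antagonist, which occupies the receptor without signalling. Its signal was 59.4, 39.3, 30.8 and 22.0 in the DEP channel and 41.3, 41.9, 15.6 and 20.6 in the control channel. The array ratios were 0.52, -0.09, 0.98 and 0.09, and as for Tnf the highest came from array 3, where the control channel was not well above background. The mean of 0.38 ± 0.48 (SD, n = 4) had an adjusted limma p of 0.385. The mean was 0.17 without array 3, 0.13 with loess, 0.21 with both-channel spots alone, over 2 arrays, and 0.0042 under normexp with centring. As for Tnf, the both-channel filter left out array 3, and the normexp offset of 50 draws the ratios of weak signals towards 0. Il10, which encodes the main cytokine that restrains macrophages, had DEP signals of 7.51 to 15.8 and control signals of 9.57 to 16.1. Of its 37 spots, 1 in each channel was well above background. Its ratios of -0.02, -0.51, -0.09 and -0.39 were below 0 on 4 arrays, but they compare 2 signals at background, and the adjusted limma p was 0.365.

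Nfkbia encodes IκBα, the inhibitor that is degraded to release NF-κB and resynthesised under its control. Its signal was 10294, 6493, 5362 and 6439 in the DEP channel and 7804, 6330, 6473 and 5694 in the control channel. The channels overlapped, and array 1 was the brightest in both. The array ratios were 0.40, 0.04, -0.27 and 0.18, with a mean of 0.09 ± 0.28 (SD, n = 4). The adjusted limma p was 0.768 and the 95% interval ran from -0.29 to 0.46. Without array 1 the mean was -0.02, on the other side of 0.

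Tnfaip3 encodes A20, a ubiquitin-editing enzyme that ends signalling from the receptors of TNF and interleukin-1. It had signals of 828, 582, 484 and 531 in the DEP channel and 629, 538, 440 and 472 in the control channel. The DEP channel was the higher one on each array, and array 1 stood above the others as for Nfkbia. The array ratios were 0.40, 0.11, 0.14 and 0.17, with a mean of 0.20 ± 0.13 (SD, n = 4). This was the smallest SD among the 5 genes with a measured channel on every array, and 15.1% of the fully measured probes varied as little or less. In limma the standard error was 0.11, the adjusted p 0.370 and the 95% interval from -0.08 to 0.49.

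The 2 inhibitors kept small mean ratios under most of the processing that was tried. Normexp with centring gave the greatest values, 0.53 for Nfkbia and 0.35 for Tnfaip3, with adjusted limma p-values of 0.0575 and 0.0665. Under it 4121 probes passed an adjusted p under 0.05, 3514 of them above 0, against 0 probes under each other alternative. The number of the 10 genes with a mean above 0 was then 5 in place of 8.

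**Figure D4:**
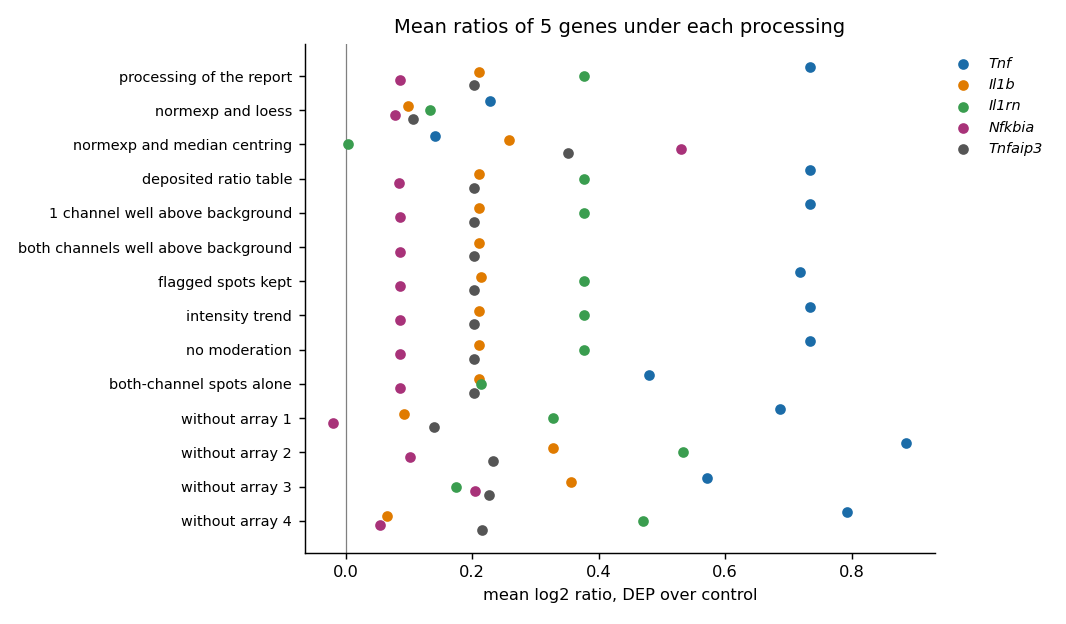
Mean log2 ratio of DEP over control (horizontal axis) of the 5 genes with a measured channel on every array, under the processing of the report and each alternative (vertical axis). A point is left out where a filter removed the gene. Tnf ranges from 0.14 to 0.89, and the point below 0 is Nfkbia without array 1.

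On array 1 ratios were more widely spread over the whole array than on the others, with an SD over all probes of 0.97 against 0.62 to 0.68. Several feedback genes of the pathway, but not all, also had their highest ratio there. Among genes chosen for mention after their values had been seen, Zfp36, which destabilises the mRNAs of Tnf and other cytokines, had ratios of 1.96, -0.33, -0.30 and -0.53. Dusp1, a phosphatase that shuts off MAP kinases, had ratios of 1.84, -0.31, -0.48 and 0.37. Socs3, an inhibitor of cytokine receptor signalling, had 1.1, -0.32, -0.56 and -0.25. All of these are known for rapid induction, and their ratios were above 1 on array 1 alone, where Tnf, Nfkbia and Tnfaip3 had their brightest signals in the DEP channel. Cxcl1, a neutrophil chemokine and NF-κB target, had the same form, with 2.36, -0.01, -0.02 and -0.29. The adjusted limma p-values of these 4 genes were between 0.595 and 0.988. Other genes went the other way and are also named for their values. The feedback genes Nfkbie and Cyld and the NF-κB targets Vcam1 and Lcn2 had their lowest ratios on array 1, at -0.02, -0.42, -0.67 and -0.52.

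The other genes of the pathway were described by 8 lists of 81 genes, of which 78 were tested. Mean ratios were above 0 for 57 of them and below 0 for 21. At an unadjusted p under 0.05 in limma 13 were called above 0 and 2 below, and 0 passed after adjustment. Calls in either direction made up 19.2% of the listed genes and 18.6% of all probes. Calls above 0 made up 16.7% of the listed genes against 9.6% of all probes, and calls below 0 made up 2.56% against 8.96%. These sets differ, since each listed gene was represented by its brightest probe and 70 of the 78 were fully measured. Of these 70 genes 10 were called above 0 and 2 below. A limma fit of the 22394 fully measured probes alone called 3467 at this threshold, of which 1781 were above 0. Ratios above 0 made up 73.1% of the listed genes against 53.1% of all probes. With the channel labels exchanged, the shares above and below 0 would change places.

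Among the receptors of these cytokines 9 of 11 had ratios above 0, with a median of 0.32, and 1 was called at the unadjusted threshold. This was Il1r1, the signalling receptor of interleukin-1, with ratios of 0.79, 0.67, 0.35 and 0.72. Its mean was 0.63 ± 0.19 (SD, n = 4), with an adjusted limma p of 0.135. Of the 14 signal transducers 9 were above 0, with a median of 0.12, and 4 were called above and 1 below. Ripk1, a kinase of the TNF receptor complex, had a mean of 0.74 ± 0.15 (SD, n = 4) and an adjusted limma p of 0.108. Traf6, the ubiquitin ligase of interleukin-1 receptor signalling, had a mean of 0.46. Ikbkg, the regulatory subunit of the IκB kinase, had one of 0.42 from the brighter of its 2 probes. The call below 0 was Tab1, an adaptor of the kinase that activates IκB kinase, with a mean of -0.35, which is named here because its value was seen.

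Of the 5 NF-κB subunits 4 had ratios above 0, with a median of 0.12. Rel and Rela are named after their values had been seen. Rel was called, at a mean of 0.53, from a probe that was measured on 1 array in each channel, and Rela, the main activating subunit, had ratios of 0.05, 0.15, -0.10 and -0.08. Of the 15 other feedback inhibitors 13 were above 0, with a median of 0.22, and 2 were called. Nfkbid, a nuclear member of the IκB family, had ratios of 0.58, 0.83, 0.65 and 0.67, with a mean of 0.68 ± 0.11 (SD, n = 4) and an adjusted limma p of 0.108. Socs1, an inhibitor of cytokine receptor signalling, had a mean of 0.38 and an adjusted limma p of 0.244. Of 12 other NF-κB targets tested among 15 listed, 9 were above 0, with a median of 0.23. The 1 called, Saa3, was measured on no array and is named for that reason.

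In the list of interleukin-1 maturation and family genes 7 of 8 were above 0, with a median of 0.36, and 3 were called. Casp1, the protease that cuts the precursor of interleukin-1β, had ratios of 0.50, 0.31, 0.48 and 0.34, with a mean of 0.41 ± 0.10 (SD, n = 4) and an adjusted limma p of 0.175. Il18bp, a decoy for interleukin-18, had a mean of 0.46 and was below 0 on array 1. The remaining one, Il1f9, is named because its value was seen and had a mean of 1.02, with a ratio of 2.47 on array 3. It was measured in the control channel on only 2 of 4 arrays. The other prostaglandin enzymes, listed without Ptgs2, had ratios below 0 for 6 of 9, with a median of -0.12. Ptges3 was called below 0, with a mean of -0.32 from the brightest of its 4 probes. Under normexp with centring the median of this list was 0.31. Of the 4 receptors of prostaglandin E2 3 were above 0, with a median of 0.05, and Ptger4 was called with a mean of 0.70, its ratio being 1.43 on array 1 and 0.09 on array 4.

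**Figure D5:**
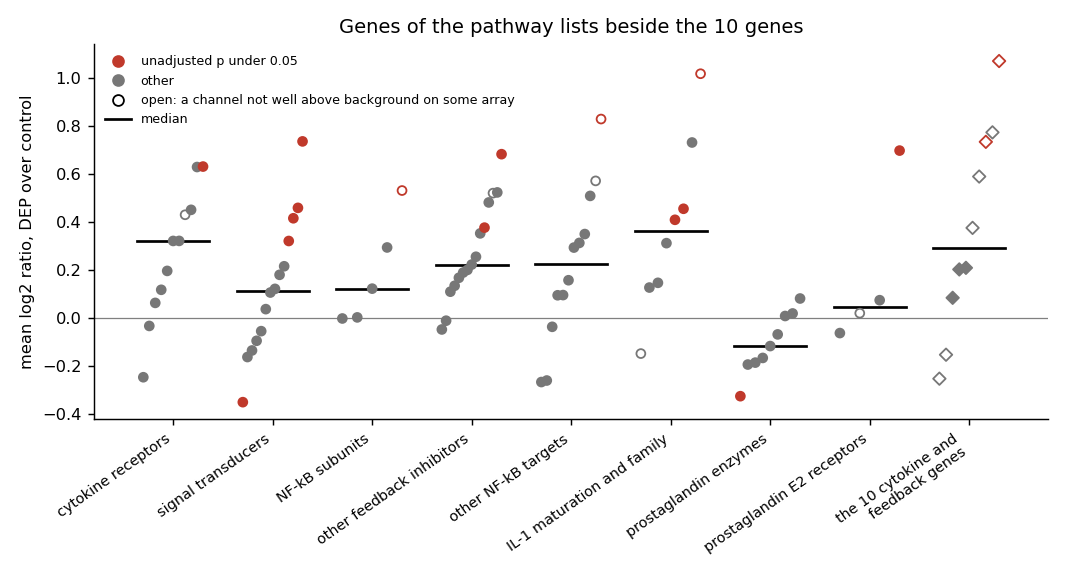
Mean log2 ratio of DEP over control (vertical axis) for the tested genes of the 8 pathway lists (circles) and the 10 cytokine and feedback genes (diamonds). Red marks an unadjusted p under 0.05, open symbols mark genes that were not fully measured, and bars are medians, which range from -0.12 to 0.36 over the lists.

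Marker genes of other cells changed between arrays beside these ratios. Of 4 mast cell markers 3 were tested, all with ratios above 0, and Ms4a2 was at background. The median ratios of this list were 0.63, 0.38, 0.00 and 0.91 on arrays 1 to 4, and its summed signal was 2902 to 4746 in the DEP channel and 1549 to 3257 in the control channel. The median was highest on arrays 1 and 4, but Cpa3 had ratios of 0.18, 0.19, 0.39 and 1.18 and was lowest on array 1. Of the 3 tested markers 1 was called above 0 at an unadjusted p under 0.05 in limma, as were 9.6% of all probes. Of 8 neutrophil markers with a probe 4 were above 0 and none was at background. Their medians were -1.13, 0.01, 0.57 and 0.17, and their summed signal was 313403 to 478654 in the DEP channel and 259076 to 723456 in the control channel. The median of the list was lowest on array 1 and highest on array 3, but Ltf had ratios of -1.32, 0.01, -0.99 and -0.32. Of 7 monocyte and macrophage markers with a probe 3 were above 0, with medians between -0.09 and 0.11 and summed signals of 39091 to 63111 in the DEP and 48080 to 76143 in the control channel. Of these 7 markers 2 were called at an unadjusted p under 0.05 in limma, as were 18.6% of all probes in either direction. They are named for it, Adgre1 with a mean of 0.53 and Lyz2 with one of -0.66. The part of these cells in the ratios of the 10 genes was not tested.

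The remaining lists had median ratios over the 4 arrays that ran from 0.07 to 0.40 for T cells, -0.44 to 0.58 for B cells, -0.50 to 0.35 for mucosal epithelium and -0.96 to 0.51 for inner ear. They ran from -0.51 to 0.33 for bone and from -0.72 to 0.76 for skeletal muscle. At an unadjusted p under 0.05 in limma 2 of 5 T cell and 1 of 4 bone markers were called above 0. Over all probes 9.6% were called in that direction. Cd8a, among the T cell markers called, was measured on no array. No B cell, mucosal epithelium, inner ear or skeletal muscle marker was called. Of the 6 neuron markers 6 had mean ratios below 0 and 4 were called below 0 at an unadjusted p under 0.05 in limma, as were 8.96% of all probes. Their median was -1.09, with array medians of -2.57, -1.45, -1.06 and 0.29. Their summed signal was 15239 to 26894 in the DEP channel and 19604 to 62404 in the control channel, and their part in the ratios of the 10 genes was not tested either. The markers of mucosal epithelium, the lining of the middle ear, were fully measured for 7 of 7 genes.

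The ratios of Il1b were also set beside those of other genes. It was taken because its absolute mean ratio, 0.21, was just above that of Tnfaip3, 0.20, among the 3 fully measured genes, and this order did not hold with loess, with centring or without array 1 or 4. The genes nearest to its 4 ratios by Euclidean distance among 14279 genes were Angptl7, Gm13304 and Dcstamp. Their distances were 0.039, 0.22 and 0.37, against a median of 1.12. Over 4 arrays this likeness is a description of the ratios only.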

How the data were processed

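RNA of 4 DEP and 4 control ear extracts was hybridised to 4 arrays of 1 slide, scanned together, so that no batch could be tested. The authors quantified the spots with Agilent Feature Extraction 10.10.1.1. The deposited processed intensities are background-subtracted and dye-normalized, and the deposited log10 ratio sets Cy5 against Cy3. It is 0 where the software gave no ratio. These log10 ratios were turned to log2. Control spots, flagged spots (164 to 274 per array) and spots with no ratio (6179 to 8558) were left out, spots of a probe were averaged, and a ratio on 3 arrays was required. The labels list both treatments under Cy5, so the source names were followed. A probe was well above background on an array if most of its kept spots were, and this held for 65.4% to 68.9% of probes in Cy5 and 59.2% to 68.0% in Cy3. The correlation between arrays ran from -0.22 to 0.61. The small number of arrays limits the precision. No column of values lacked a sample (0).

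Probes were named by accession through RefSeq, for 27655 of 39429 probes, and the brightest probe stood for a gene of the lists. An intercept was fitted with lmFit and eBayes in limma 3.58.1 (R 4.3.3; prior degrees of freedom 1.98) and checked on simulated ratios. No set test was run. The 10 genes, the 8 pathway lists and the 10 marker lists were chosen with earlier results of these data known. From each pathway list up to 3 genes were named, those with the greatest absolute mean among fully measured genes with an unadjusted p under 0.05. Others are said to have been chosen by value. Alternatives were normexp (offset 50) with loess or median centring, the deposited ratio table, filters on 1 or both channels, flagged spots kept, an intensity trend, no moderation, the probes of a gene averaged, both-channel spots alone, and each array left out, with 2 ratios enough in these last cases. Python 3.11.15, pandas 2.3.3, numpy 2.4.6, scipy 1.17.1 and matplotlib 3.10.9 were used. Authors' comparisons and qRT-PCR were not analysed here.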

Additional observations from a re-analysis of the deposited data

Results flagged for a closer look

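Of 83 sets of 4 array values that were checked with Dixon's criterion, 4 held a value far from the other 3, and chance gives about 1 in 20. The log2 signal of Tnf in the DEP channel was 6.72 on array 1, against 5.58 to 5.71 on the other arrays. Zfp36 had a log2 ratio of 1.96 on array 1, against -0.53 to -0.30 elsewhere. Cxcl1 had a log2 ratio of 2.36 on array 1, against -0.29 to -0.01. Il10ra, which encodes the ligand-binding chain of the interleukin-10 receptor, had a log2 ratio of -0.30 on array 1, against 0.03 to 0.09. All 4 values came from array 1, where the ratios of all probes had an SD of 0.97, against 0.62 to 0.68 on the other arrays. The part of this spread in the 4 values was not tested.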

How the results depend on the processing

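The tests on ratios already pair the extracts of an array, and the replicate numbers pair no other samples. Of 63 values for the ratios of Tnf, Il1b, Il1rn, Nfkbia and Tnfaip3 under the alternatives, 62 kept their sign and all stayed at an adjusted limma p above 0.05. The exception was Nfkbia without array 1, at -0.019, and its values with an array left out reached 0.20. The count of the 10 genes with an unadjusted p under 0.05, 2 as reported, was 1 with loess, with 1 channel well above background and without moderation, 0 with both channels and with both-channel spots alone, 4 with centring, and 1 to 2 with an array left out. The count with ratios above 0 was 5 of 10 with centring, and 5 of 5, 3 of 3 and 5 of 5 under the filters on 1 channel, both channels and both-channel spots. These filters left fewer genes, and the first kept Tnf and Il1rn through the DEP channel, so its count partly follows from the filter. It was 7 to 9 with an array left out. The median over the genes was 0.29 as reported, 0.10 with loess, -0.014 with centring and 0.23 to 0.43 with an array left out. The offset of 50 used with loess and centring draws the ratios of weak signals towards 0. Of 112 medians of the pathway lists, 110 kept their sign. With centring the medians of cytokine receptors, signal transducers, NF-κB subunits, other feedback inhibitors and other NF-κB targets were 0.53, 0.35, 0.34, 0.43 and 0.14, and with loess those of cytokine receptors, NF-κB subunits, other NF-κB targets, interleukin-1 family genes and E2 receptors were 0.21, 0.027, 0.072, 0.23 and 0.018. Under the filters on 1 channel, both channels and both-channel spots NF-κB subunits were at 0.064 and other NF-κB targets at 0.13, while E2 receptors were at 0.076 with both channels and 0.0072 with both-channel spots alone. With averaged probes signal transducers were at 0.068, NF-κB subunits at 0.26, other NF-κB targets at 0.14 and prostaglandin enzymes at -0.027. The 2 that changed sign were the prostaglandin enzymes with centring, at 0.31, and the prostaglandin E2 receptors without array 4, at -0.038. Without array 1 the medians of other NF-κB targets, NF-κB subunits, signal transducers and cytokine receptors were 0.029, 0.031, 0.042 and 0.21, and those of prostaglandin enzymes and E2 receptors -0.0079 and 0.15. Without array 3 the NF-κB subunits were at 0.22 and the E2 receptors at 0.11. Without array 4 the signal transducers were at 0.18, other feedback inhibitors at 0.35, other NF-κB targets at 0.15 and prostaglandin enzymes at -0.19. The cause of these shifts was not tested. Of the 10 genes 7 had a channel near background, which limits their ratios.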
